A study of Mus musculus with 40 samples.

Results

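DN3 thymocytes taken from mice given a Notch1 blocking antibody were compared with DN3 thymocytes from mice given control IgG, 3 libraries against 3, across all genes of the table. These are 6 of the 40 libraries of the study, chosen by their labels alone, and 12658 of the 23284 genes in the table passed the filter on low counts and were tested. The mice were of the C57BL/6 strain, with no allele or transgene given in the labels for these groups. They received 10 mg/kg of antibody into the peritoneum, either directed at the negative regulatory region (NRR) of Notch1 (AntiNRR) or an isotype-matched IgG, and thymocytes were sorted 24 hours later. The control libraries are called IgG here. The study as a whole set this blockade beside loss of Zmiz1, a co-activator of Notch1, in 12 groups covering DN3 cells and the earlier ETP stage. Of those, 2 further pairs of groups serve below as a background: the same antibodies in ETP, and DN3 cells of MxCreZmiz1f/f mice (DeltaMxCre) against MxCre mice. MxCre is switched on by interferon and acts in many tissues, and both of those groups had been injected with pI-pC (40 mcg every 2 days, 5 times) and sorted 8 weeks later.

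Notch1 is a surface receptor that is cut in 2 steps when a neighbouring cell presents a Delta or Jagged ligand. The NRR covers the first of these cutting sites, and an antibody that clamps it keeps the receptor uncut. Without cutting, the intracellular part does not reach the nucleus, where it joins Rbpj and Mastermind proteins on DNA to raise transcription. In the thymus, Notch1 signals commit precursors to the T lineage and carry them through the DN3 stage, at which the beta chain of the T-cell receptor is assembled and tested with the pre-T-cell receptor. Genes known to depend on Notch in these cells include Dtx1, Il2ra, Ptcra, Hes1, Notch3 and Myc.

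The 6 libraries held between 11695668 and 18745922 counts. Levels below are CPM (counts scaled to a library of fixed size) after TMM scaling, and log2 fold changes are AntiNRR minus IgG with their standard error (SE). The labels do not give the number of mice behind the antibody groups, so a p-value here measures the spread between these samples, which may be technical. In bulk RNA, fewer cells of a type and less RNA per cell cannot be told apart. Fewer genes were detected in the AntiNRR libraries (13253 to 13513) than in the IgG libraries (13764 to 14161). Rn45s, the ribosomal RNA precursor, took 4.77% to 6.80% of counts in AntiNRR and 2.75% to 3.74% in IgG, and its part in the results below was not tested beyond leaving it out of the library sizes.

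The labels describe the sorted DN3 cells as CD44+CD25-, although DN3 cells are usually defined as CD44-low and CD25+. For Cd44 and Il2ra, which encodes CD25, the RNA followed the usual definition. Cd44 lay between 2.24 and 3.95 CPM in the 6 libraries, while Il2ra was at 3275 to 3893 CPM in IgG and 557 to 869 CPM in AntiNRR. Rag1, one of the recombinase genes, lay between 3585 and 5051 CPM. Cd4 was at most 15.7 CPM and Cd8a at most 11.8 CPM, and Flt3, a progenitor receptor, was at 0 in 5 of the 6 libraries. Kit, another progenitor receptor taken as low at this stage, went the other way. It was far above Cd44 in each library, and its values are given below.

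At an edgeR adjusted p under 0.05, 710 of the 12658 genes were called (5.61%), 335 higher after the antibody (2.65%) and 375 lower (2.96%). Most changes were moderate: the median size among called genes was 0.64 on the log2 scale, and 55 called genes rose and 84 fell by at least a factor of 2. The median over all genes tested was -0.01, with 48.7% above 0. The share of all tested genes without overlap between the 2 DN3 groups was not counted, so such a separation, where given below, is no result by itself. DESeq2 called 471 higher (3.37%) and 450 lower (3.22%). The count of calls was lower without any single library of either group. It was 551, 495 and 677 without AntiNRR 1, 2 and 3, and 489, 353 and 351 without IgG 1, 2 and 3.

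**Figure D1:**
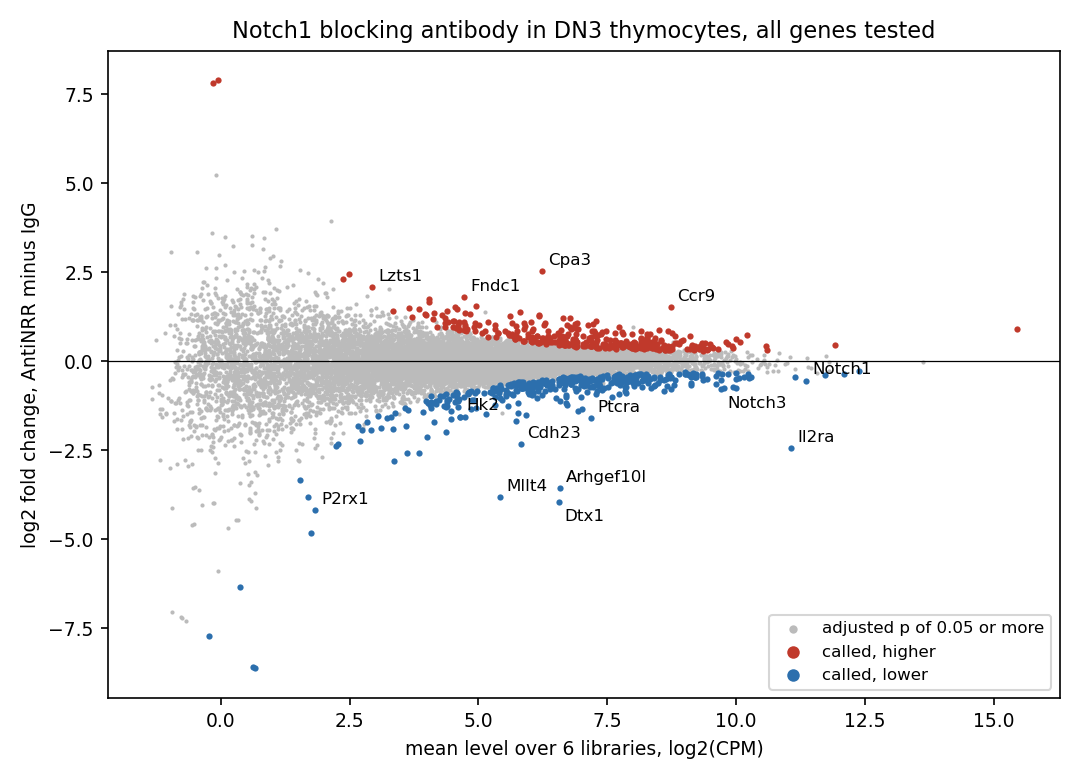
Each point is 1 of 12658 genes, with its mean level over 6 libraries on the horizontal axis (log2 CPM) and its log2 fold change, AntiNRR minus IgG, on the vertical axis; red points are called higher, blue points lower. Il2ra stands out by a change of -2.43 at a high level, and Dtx1, Arhgef10l and Mllt4 by log2 fold changes of -3.56 to -3.94; the fitted changes beyond 5 belong to genes near 0 CPM in 1 group and depend on the prior count.

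The RNA of the targeted receptor itself was lower. Notch1 (chromosome 2, 26457903 to 26516663, minus strand) stood at 1961, 2341 and 2077 CPM in AntiNRR 1 to 3 and at 3200, 3106 and 2970 CPM in IgG 1 to 3. The highest AntiNRR library lay below the lowest IgG library, and the difference of -0.54 (SE 0.09, adjusted p = 0.000275) passed the test. The antibody acts on the protein, so this RNA level is a readout of the cells and no measure of how much receptor was blocked. Notch3, a second Notch receptor and itself a Notch target (chromosome 17, 32120820 to 32166852, minus strand), held 596, 707 and 536 CPM against 1077, 1044 and 1030 CPM. Its groups did not overlap either, and it fell by 0.78 on the log2 scale (SE 0.10, adjusted p = 2.66e-05).

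The other 9 tested genes among receptors, ligands and the glycosyltransferases that tune them did not pass by edgeR (18.2% of 11 called, against 5.61% of all genes). DESeq2 called 4 of the 11, all lower. Notch2 was at 205, 200 and 236 CPM against 197, 184 and 170 CPM (0.22, adjusted p = 0.321). Mfng, a fringe glycosyltransferase, lay lower in every AntiNRR library at 19.7, 23.9 and 24 CPM against 39.4, 39.5 and 33.9 CPM, with an adjusted p of 0.0537 just above the threshold. Jag1 was at 0 in the AntiNRR libraries and at 0.712 to 2.03 CPM in IgG, too low for a fold change. None of the 19 genes of Notch cleavage and turnover was called (median 0.11). Among 25 genes of the Notch transcription complex and its co-repressors, 2 passed (8% called, near the 5.61% of all genes). Ep300, an acetyltransferase co-activator, rose by 0.34 and Tle3, a Groucho co-repressor, fell by 0.32. Both calls were lost without several single libraries, for example without IgG 2, where adjusted p was 0.182 for Ep300 and 0.16 for Tle3. Zmiz1, at 333, 319 and 331 CPM against 317, 293 and 267 CPM, did not pass (0.16, adjusted p = 0.436).

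Among 17 tested Notch target genes, 6 fell and 1 rose (41.2% called, against 5.61% of all genes), and their median was -0.44. These genes were listed because they are known to follow Notch, and the list was drawn up with earlier results of these data known. Dtx1 (chromosome 5, 120680202 to 120711927, minus strand), whose product Deltex1 attaches ubiquitin to proteins, was at 5.08, 13.8 and 16.1 CPM after the antibody and at 166, 196 and 167 CPM in IgG. The nearest libraries of the groups lay 10.3-fold apart, with a log2 fold change of -3.94 (SE 0.43, adjusted p = 0.00576). Il2ra, the alpha chain of the interleukin-2 receptor (chromosome 2, 11642807 to 11693193, plus strand), was at 557, 869 and 591 CPM against 3275, 3893 and 3730 CPM. All 3 AntiNRR libraries stood far below the controls, yet none was near 0, and the fall was 5.40-fold (-2.43, SE 0.16, adjusted p = 1.46e-05).

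Ptcra encodes the alpha chain of the pre-T-cell receptor (chromosome 17, 46755663 to 46763712, minus strand). It held 85.5, 58.6 and 74.6 CPM after the antibody and 233, 213 and 211 CPM in IgG. The groups did not overlap, and Ptcra fell 3.00-fold (-1.59, SE 0.13, adjusted p = 5.6e-08). Myc, a driver of growth (chromosome 15, 61985391 to 61990374, plus strand), was at 71.6, 71.7 and 66.2 CPM against 181, 114 and 120 CPM. The AntiNRR libraries were nearly equal and all below the controls, among which IgG 1 was the highest, and the difference was -0.99 (SE 0.16, adjusted p = 0.000253). With a spread shared by all 4 DN3 groups of the table, adjusted p was 0.0927 for Myc.

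Hes1, a repressor of the Hairy family and a common Notch reporter, fell by less than Dtx1. It was at 57.8, 46.8 and 34.4 CPM against 94.5, 53.4 and 83.1 CPM, so AntiNRR 1 lay above IgG 2. The difference of -0.73 (SE 0.21) passed at adjusted p = 0.0431, and the call was lost without AntiNRR 2 (0.139), AntiNRR 3 (0.15), IgG 1 (0.246) or IgG 3 (0.19). Gata3, a transcription factor of T-lineage commitment that also stands on the target list, moved the other way. It was at 256, 250 and 258 CPM after the antibody and at 155, 156 and 130 CPM in IgG, without overlap (0.79, SE 0.11, adjusted p = 5.46e-05).

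The remaining 10 tested targets did not pass. Nrarp, a feedback inhibitor of Notch, was low and scattered at 1.42, 5.02 and 8.29 CPM against 7.79, 4.79 and 7.37 CPM (-0.44, adjusted p = 0.788). Hes5 was lower still, at 0.543 to 4.92 CPM against 0.842 to 2.62 CPM. Igf1r, a growth factor receptor, was at 307, 336 and 324 CPM against 279, 293 and 290 CPM (0.17, adjusted p = 0.403). Trib2 was at 14.1, 11.7 and 11.3 CPM against 17.2, 19.9 and 14.6 CPM, lower in each AntiNRR library, with an adjusted p of 0.497. Tcf7 (0.19), Lfng (0.32), Runx3 (0.32) and Ccnd3 (-0.01) did not pass either.

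**Figure D2:**
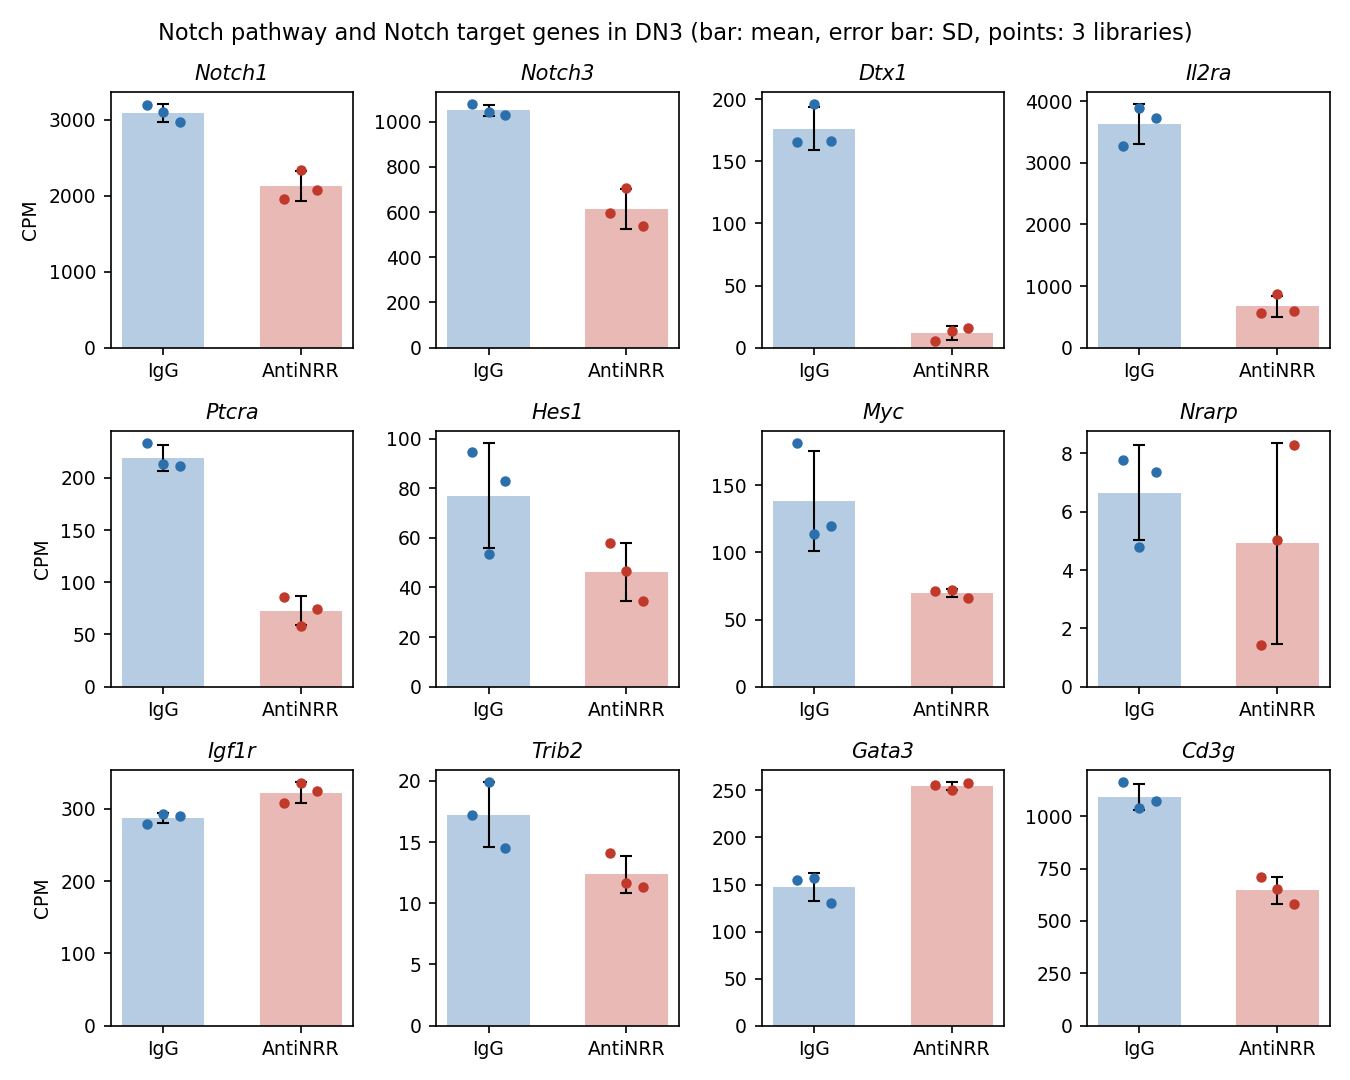
CPM of 12 genes in the 3 IgG libraries (blue) and 3 AntiNRR libraries (red); bars are means, error bars SDs, points single libraries, and each panel has its own vertical axis from 0. Dtx1, Il2ra and Ptcra show the widest separation, Hes1 and Nrarp overlap between groups, Gata3 is higher after the antibody, and Igf1r and Trib2 did not pass the test.

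Rbpj, the DNA-binding partner of cut Notch, prefers the letters TGGGAA, in a longer form CGTGGGAA, which contains the shorter one. Both were looked for on both strands in RefSeq promoter windows of 300 bases (250 before to 50 after the gene start, build GRCm38.p6). TGGGAA stood in 25.6% of all 32851 windows, in 23.2% of those of tested genes, in 21.1% of 370 windows of 308 genes that fell and in 17.4% of 357 windows of 263 genes that rose. CGTGGGAA stood in 0.734% of all windows, in 1.07% of those of tested genes, in 3 windows of genes that fell (0.811%) and in 1 of genes that rose (0.28%). Among fallen genes the shorter form was thus less frequent than among all or tested genes, and the longer form, at 3 windows, lay between both shares; no difference was tested. A match is a description of letters, not a binding site. Windows of Dtx1, Il2ra, Notch1, Notch3 and Nrarp held none.

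The 250 bases before the start are shown for Ptcra, whose window holds 2 copies, and for Cd3g, another fallen gene of the pre-T-cell receptor, whose window holds 1, beside Dtx1, the target with the largest fall. Ptcra and Cd3g were chosen after their values were seen. All lie on the minus strand, are written 5′ to 3′ in the direction of the gene, and have TGGGAA in capitals. They cover chr17:46763713-46763962 for Ptcra, chr9:44980432-44980681 for Cd3g and chr5:120711670-120711919 for Dtx1. In Ptcra the copies begin 84 and 32 bases before the start, and in Cd3g the copy begins 174 bases before it.
Ptcra: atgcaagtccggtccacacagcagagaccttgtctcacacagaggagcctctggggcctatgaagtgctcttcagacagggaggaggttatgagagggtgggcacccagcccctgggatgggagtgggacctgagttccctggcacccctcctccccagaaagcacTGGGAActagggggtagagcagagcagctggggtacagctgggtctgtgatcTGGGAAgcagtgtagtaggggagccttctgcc
Cd3g: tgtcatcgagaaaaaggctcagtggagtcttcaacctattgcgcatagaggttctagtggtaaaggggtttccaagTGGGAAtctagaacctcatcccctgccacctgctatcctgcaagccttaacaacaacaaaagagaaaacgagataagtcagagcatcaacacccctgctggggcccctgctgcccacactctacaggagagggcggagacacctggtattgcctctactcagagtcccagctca
Dtx1: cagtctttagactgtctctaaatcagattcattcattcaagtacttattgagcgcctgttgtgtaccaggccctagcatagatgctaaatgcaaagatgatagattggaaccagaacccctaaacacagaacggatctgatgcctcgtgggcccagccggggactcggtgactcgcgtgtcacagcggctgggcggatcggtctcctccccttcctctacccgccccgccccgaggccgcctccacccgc

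Beyond the listed targets, the largest falls included several genes left at a small share of their control level. Arhgef10l, which encodes a guanine nucleotide exchange factor (chromosome 4, 140514485 to 140666012, minus strand), had the lowest p of all genes. It stood at 11, 20.7 and 13.4 CPM after the antibody and at 177, 183 and 168 CPM in IgG (-3.56, SE 0.19, adjusted p = 4.22e-11). Its controls agree closely, and the nearest libraries of the groups lie 8.14-fold apart. Mllt4, now named Afdn, which encodes the junction adaptor afadin (chromosome 17, 13760539 to 13906150, plus strand), was at 3.17, 8.58 and 5.58 CPM against 66.1, 91.6 and 81.7 CPM (-3.81, SE 0.28, adjusted p = 2.89e-08). Cdh23, a cadherin (chromosome 10, 60302748 to 60696490, minus strand), was at 19.1, 21.8 and 15.4 CPM against 93.4, 89.4 and 99.3 CPM (-2.33, SE 0.18, adjusted p = 2.89e-08).

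The other members of the 12 largest falls were scarcer. Vwce was at 0.71, 4.33 and 2.87 CPM against 14.2, 17 and 22.4 CPM. Rasal1, a Ras GTPase-activating protein, was at 4.97, 0.693 and 6.74 CPM against 25, 31.7 and 17.7 CPM. Rasal1 lies next to Dtx1 on chromosome 5 with the gene ends facing each other, and whether reads were assigned by strand is not given in the sources used here, so its fall is uncertain; its call was lost without AntiNRR 1 (adjusted p = 0.0737). P2rx1, Mfsd2a, Ngfr, Kirrel and Tgm4 were at most 2.25 CPM in any AntiNRR library and between 2.88 and 12 CPM in IgG. At these levels each of those 5 calls was lost without IgG 3, with an adjusted p of 0.0577 to 0.266, and without IgG 2, with 0.0513 to 0.462. Of genes outside the naming rule, Gfra1, a GDNF co-receptor chosen after its values were seen, had a low p: it was at 65.3, 66.9 and 84.6 CPM against 163, 190 and 198 CPM (-1.35, adjusted p = 1.22e-06).

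The largest rise was that of Cpa3, carboxypeptidase A3, a protease best known from mast cells (chromosome 3, 20215620 to 20242181, minus strand). It was at 159, 120 and 106 CPM after the antibody and at 30.1, 15 and 21.1 CPM in IgG (2.54, SE 0.22, adjusted p = 1.2e-06). The lowest AntiNRR library stood at 3.52 times the highest control. Ccr9, the receptor for the thymic chemokine CCL25 (chromosome 9, 123678439 to 123784330, plus strand), was at 703, 578 and 610 CPM against 228, 188 and 238 CPM (1.53, SE 0.11, adjusted p = 4.78e-09). Its groups stood far apart, although the spread shared by the 4 DN3 groups gave an adjusted p of 0.124.

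Eya2, a transcriptional co-activator and phosphatase, was at 42.2, 46.1 and 51.2 CPM against 16.8, 15.2 and 15.3 CPM (1.56, adjusted p = 8.41e-05). Tes, which encodes the focal adhesion protein testin, was at 30.5, 35.9 and 38.1 CPM against 12.7, 9.78 and 13.7 CPM (1.53, adjusted p = 0.000563). Slc37a3, a solute carrier, was at 26.3, 25.6 and 24.7 CPM against 8.27, 7.58 and 6.8 CPM (1.76, adjusted p = 0.00058). The nearest libraries of the groups lay 2.52-fold apart for Eya2, 2.22-fold for Tes and 2.99-fold for Slc37a3. Fndc1 lay between 36.1 and 43.9 CPM in AntiNRR and between 9.28 and 13.7 CPM in IgG, and had an adjusted p of 0.202 with the shared spread. The 12 largest rises also included D10Bwg1379e, Igfbp4, Lzts1, Olfr1507 and Adra1b, at most 32.7 CPM in any library. Olfr1507 lost the call when any 1 of 5 libraries was left out, with an adjusted p of up to 0.0899, and Adra1b when any 1 of 3 was left out (up to 0.208). Igfbp4 lost it without IgG 3 (adjusted p = 0.0512) and with the shared spread (0.258), and Lzts1 without AntiNRR 1 (0.0703).

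**Figure D3:**
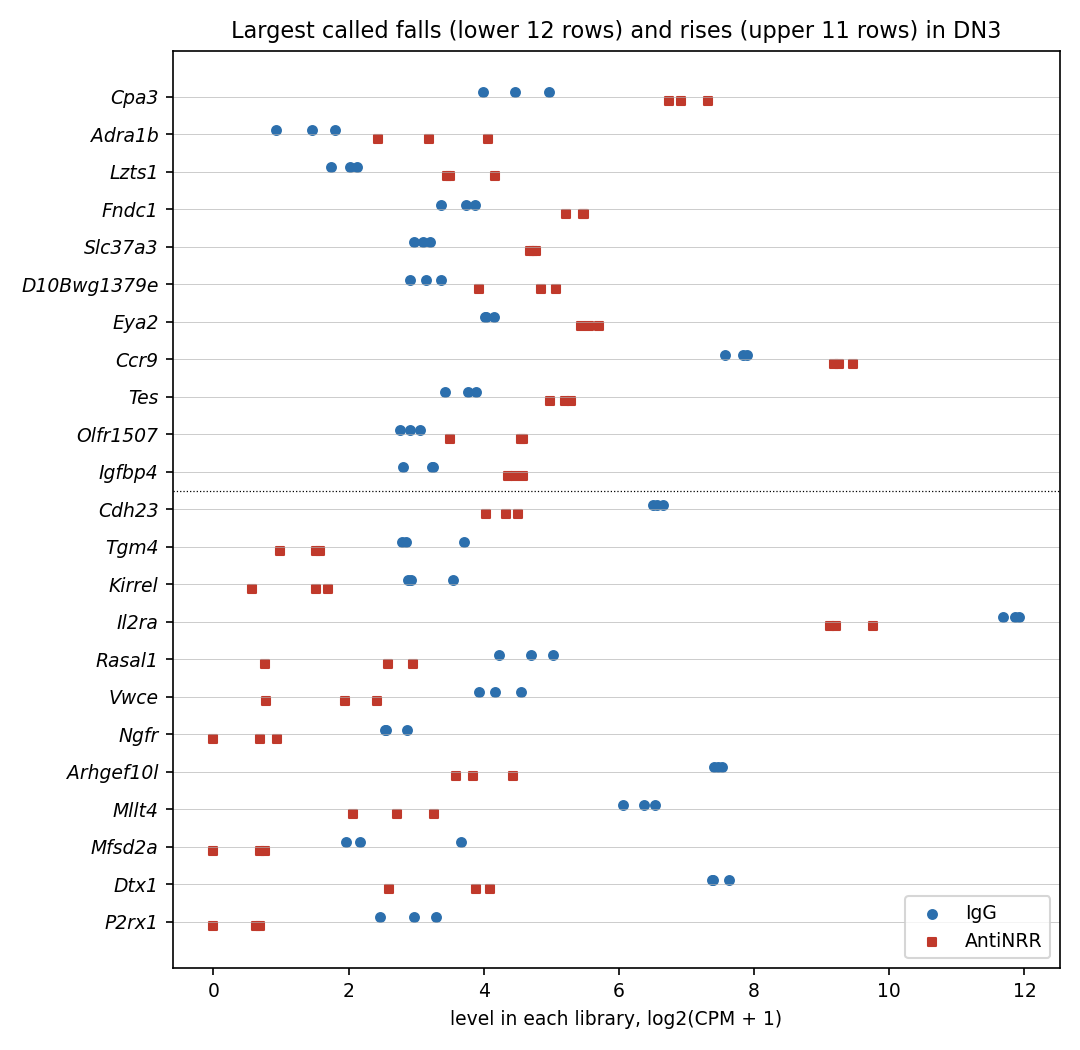
Levels in each library, log2(CPM + 1), of the 12 largest called falls (below the dotted line) and 11 of the 12 largest called rises (above it); circles are IgG and squares AntiNRR. No gene shows overlap between groups, which the rule for choosing them required; Il2ra, Ccr9 and Arhgef10l are far more abundant than P2rx1, Mfsd2a or Ngfr.

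The pre-T-cell receptor and its proximal signalling genes changed in both directions. Of 20 tested, 3 fell and 4 rose (35% called, against 5.61% of all genes, median 0.04), and without IgG 2 the rises were 2. The falls were all receptor chains: Ptcra, Cd3g (708, 654 and 579 CPM against 1162, 1040 and 1071 CPM, -0.75, adjusted p = 2.43e-05) and Cd3d (166, 180 and 175 CPM against 295, 276 and 283 CPM, -0.71, adjusted p = 7.52e-05). Cd3e was at 965, 1012 and 904 CPM against 1305, 1021 and 1148 CPM, AntiNRR 2 lying just below IgG 2, and did not pass (adjusted p = 0.113). The rises included Cd247, the zeta chain of the receptor complex, and the signalling proteins Grap2 and Themis.

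Of 11 genes of receptor gene recombination, Dntt, the template-independent polymerase, rose and Rag1 and Xrcc5 fell (27.3% called, against 5.61% of all genes). No fall was left without AntiNRR 2, AntiNRR 3 or IgG 3. Dntt was at 4983, 4045 and 4525 CPM against 3619, 3052 and 3098 CPM (0.47, adjusted p = 0.00227). Rag1 was at 4360, 3585 and 3588 CPM against 5051, 4709 and 5042 CPM, a smaller shift of -0.36 whose call was lost without AntiNRR 2 (adjusted p = 0.116), AntiNRR 3 (0.0954) or IgG 3 (0.0899). Xrcc5 lost its call without AntiNRR 2 (adjusted p = 0.0812), AntiNRR 3 (0.0609), IgG 1 (0.0999) or IgG 3 (0.144).

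Of 31 T-lineage transcription factors, 7 rose and 3 fell (32.3% called, against 5.61% of all genes, median 0.16). With the shared spread 4 rose. Besides Gata3, Ikzf2 (Helios) was at 602, 550 and 503 CPM against 340, 279 and 327 CPM (0.81, adjusted p = 2.66e-05). Satb1, a chromatin organiser of thymocytes, was at 1377, 1216 and 1269 CPM against 922, 818 and 897 CPM (0.55, adjusted p = 0.000313). Lef1, an HMG-box factor, fell from 304, 324 and 280 CPM to 141, 187 and 165 CPM (-0.88, SE 0.11, adjusted p = 2.83e-05). None of these 3 genes overlapped between groups, though they were named for a low p in the list. Ikzf1, Nfatc1, Sox4 and Sox13 completed the rises, and Erg (-1.09) and Ets2 (-0.52) the falls. The call of Nfatc1 was lost without AntiNRR 2 (adjusted p = 0.0933), IgG 1 (0.0723) or IgG 3 (0.183). Tcf7, Bcl11b and Runx1, 3 further factors that define the lineage, did not pass: Bcl11b was at 1920 to 2082 CPM against 1637 to 1749 CPM (0.23, adjusted p = 0.113) and Runx1 at 833 to 944 CPM against 881 to 931 CPM (-0.01).

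Genes of the earlier stem and progenitor stages showed no common direction. Of 12 tested, 1 rose and 2 fell (25% called, against 5.61% of all genes). Kit, the stem cell factor receptor, was at 184, 161 and 221 CPM against 97.1, 103 and 116 CPM (0.84, SE 0.13, adjusted p = 0.000153). Every AntiNRR library was above every control. Erg, an ETS factor of stem cells, was at 22.8, 19.2 and 13.8 CPM against 43.6, 37 and 38.4 CPM (adjusted p = 0.00688), and Mycn fell by 0.99. The call of Mycn was lost without IgG 1 (adjusted p = 0.0811), IgG 2 (0.0622) or IgG 3 (0.0601).

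Il2ra and Il7r, which encode interleukin receptor chains, fell, while other genes of cytokine signalling rose. Il7r, the interleukin-7 receptor on which these cells depend for survival, was at 92.5, 74.8 and 88.3 CPM against 178, 156 and 174 CPM (-0.99, SE 0.12, adjusted p = 2.66e-05). Of the 25 tested cytokine receptor and Jak-Stat genes, Il2ra and Il7r fell and the kinase Jak1 and the factor Stat3 rose (median 0.18). The share called was 16%, against 5.61% of all genes. Jak1 was at 843, 906 and 787 CPM against 579, 584 and 643 CPM (0.49, adjusted p = 0.00151). The call of Stat3 (0.44) was lost without IgG 2 (adjusted p = 0.0589) or IgG 3 (0.0948). Stat4, named by rule as 1 of the 6 genes with the lowest p for the difference between stages, none of which passed, was at 162, 146 and 126 CPM against 79.1, 74.4 and 78.5 CPM (0.90, adjusted p = 9.28e-05).

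In the PI3K, Akt and mTOR pathway, 5 of 30 genes rose and none fell (16.7% called, against 5.61% of all genes, median 0.16). Without IgG 3 the count was 2, Pik3r1 among the lost calls (adjusted p = 0.0692). Pik3cd, a catalytic subunit of leukocytes, was at 784, 775 and 721 CPM against 512, 544 and 544 CPM (0.51, adjusted p = 0.000671). Sesn3, an inhibitor of mTORC1 and a known target of Foxo factors, was at 70.6, 93 and 75.4 CPM against 33.6, 32.2 and 55.5 CPM (0.98, adjusted p = 0.0037). The rises also included Pik3r1, the regulatory subunit, and Foxo3. So both activators and inhibitors of the pathway were among the called genes.

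Nucleolar genes for ribosome production had the most calls of the lists. Of 42 tested nucleolar ribosome biogenesis genes, 25 fell and none rose (59.5% called, against 5.61% of all genes), each of the 42 was below 0, and the median was -0.62. Ncl, nucleolin (chromosome 1, 86344719 to 86359400, minus strand), was at 790, 756 and 752 CPM against 1345, 1308 and 1173 CPM (-0.74, SE 0.09, adjusted p = 1.46e-05). Nop58, a core protein of box C/D particles that guide methylation of ribosomal RNA, was at 114, 125 and 131 CPM against 216, 219 and 211 CPM (-0.80, adjusted p = 4.96e-05). Mybbp1a was at 226, 266 and 297 CPM against 436, 430 and 394 CPM (-0.68), and Noc2l at 131, 151 and 137 CPM against 219, 222 and 244 CPM (-0.71). In none of these 4 genes did the groups overlap, though they were named for the lowest p in the list. The count of falls was 15 without IgG 2 and between 19 and 24 without any other single library, and 25 with Rn45s left out of the library sizes. Rn45s itself was higher after the antibody, at 47890 to 69040 CPM against 27200 to 37410 CPM (0.90, adjusted p = 0.0124). The RNA had been depleted of ribosomal RNA, so the level of Rn45s in the cells and what the depletion left cannot be told apart.

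Of 79 tested cytosolic ribosomal protein genes, 8 passed, all lower (10.1% called, against 5.61% of all genes). The other 71 did not pass, although 78 of the 79 values were below 0, with a median of -0.25. Rpl3 was at 1185, 989 and 1008 CPM against 1526, 1437 and 1358 CPM (-0.44, adjusted p = 0.00407), and Rpsa at 2912, 2905 and 2970 CPM against 4051, 3674 and 3773 CPM (-0.39, adjusted p = 0.00387). Ribosomal protein genes have many near-identical processed copies, so their single values are uncertain. The number of calls was 2 without AntiNRR 2, AntiNRR 3 or IgG 3, 3 without IgG 1 or with the shared spread, and 14 without AntiNRR 1.

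Most calls among growth and nutrient uptake genes were falls. Of 11 Myc network genes (27.3% called, against 5.61% of all genes), Myc and Mycn fell and Mxd4, an antagonist that competes for the Myc partner Max, rose from 118, 95.8 and 117 CPM to 174, 183 and 163 CPM (0.65, adjusted p = 0.00138). Of 17 amino acid, iron and glucose transporters, 5 fell and none rose (29.4% called, against 5.61% of all genes, median -0.38). The count was 3 without AntiNRR 1, IgG 1 or IgG 2, and 2 with the shared spread. Slc7a5, the large neutral amino acid transporter, was at 52.2, 65.2 and 66.7 CPM against 104, 120 and 92.2 CPM (-0.78, adjusted p = 0.0024). Slc1a5, a glutamine transporter, was at 42.7, 25.8 and 36.1 CPM against 59.7, 68.5 and 68.3 CPM (-0.91, adjusted p = 0.00596). Both separated the groups, although Slc7a5 had an adjusted p of 0.0538 with the shared spread. Slc7a1, Slc38a1 and Slc16a1 also passed, and Slc38a1 lost its call without AntiNRR 1 (adjusted p = 0.0604), AntiNRR 3 (0.0788), IgG 1 (0.077) or IgG 2 (0.105). The iron importer Tfrc (0.06) and the glucose transporter Slc2a1 (0.02) did not pass. Among 20 glycolysis genes, 2 passed, both lower (10% called, against 5.61% of all genes). Hexokinase 2 (Hk2) fell from 37.2, 42.3 and 32.6 CPM to 13.3, 14.9 and 10 CPM (-1.55, SE 0.26, adjusted p = 0.000396). Ldha fell by 0.35, a call that was lost whichever library was left out (adjusted p 0.0592 to 0.17). Of 26 genes of cholesterol and fatty acid synthesis, Fasn (-0.45) and Idi1 (-0.47) fell, a share of 7.69% near the 5.61% of all genes. Neither passed without IgG 2 (adjusted p = 0.0669 and 0.075), and Idi1 also not without AntiNRR 2 (0.222), IgG 1 (0.165) or IgG 3 (0.16) or with the shared spread (0.15).

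**Figure D4:**
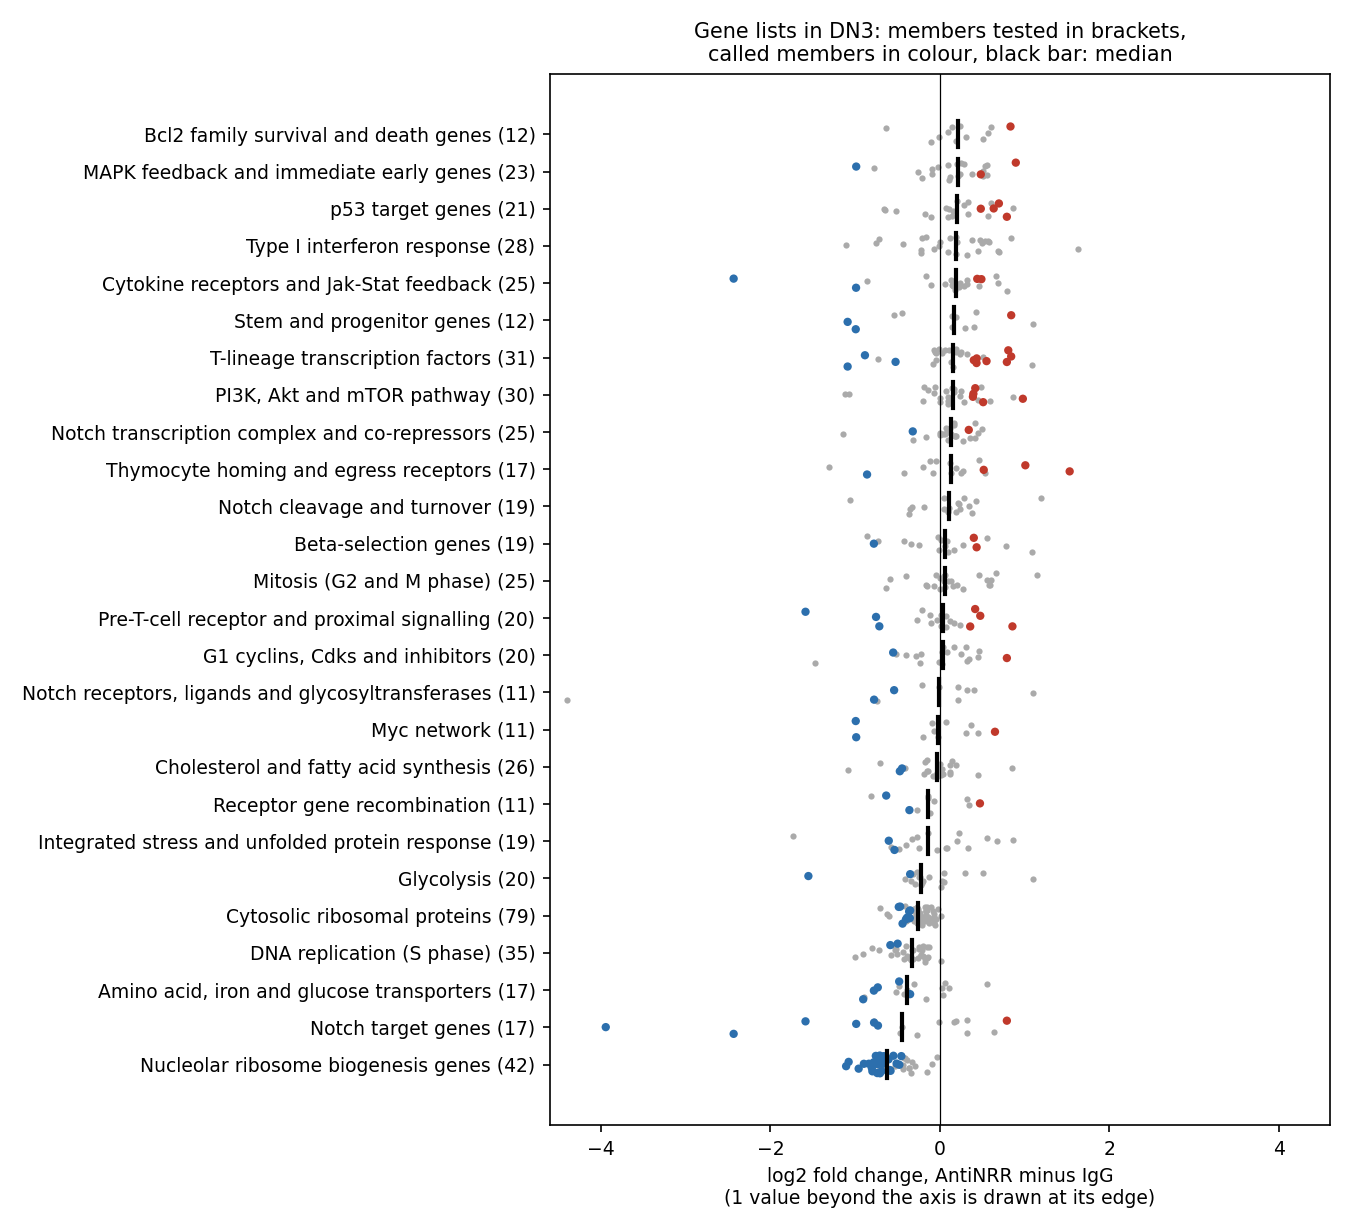
Log2 fold changes, AntiNRR minus IgG, of the tested members of 26 gene lists (horizontal axis); red and blue points are called members, grey points are not called, black bars are medians, and lists are ordered by median. The nucleolar genes lie left of 0 with a median of -0.62, the Notch targets spread from -3.94 to 0.79, and the lists at the top have medians near 0.2; the 1 point at the left edge is Jag1, which was at 0 CPM in the AntiNRR libraries.

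Mitosis genes varied within the AntiNRR group more than between groups. Of 25 mitosis genes, none was called (median 0.06), and their summed level ran from 608 to 2190 CPM in AntiNRR against 1060 to 1200 CPM in IgG. Mki67, a proliferation marker chosen after its values were seen, was at 106, 241 and 569 CPM against 274, 344 and 297 CPM. AntiNRR 1 was thus the lowest and AntiNRR 3 the highest of all 6. Leaving out AntiNRR 1 moved the median of the list to 0.40, and leaving out AntiNRR 3 moved it to -0.57. Of 35 DNA replication genes, 34 were below 0 (median -0.33), but 2 passed, Uhrf1 and Mcm3 (5.71% called, near the 5.61% of all genes). Without AntiNRR 3 the number was 14. Uhrf1, a maintenance factor of DNA methylation, was at 538, 556 and 627 CPM against 840, 806 and 785 CPM (-0.50, adjusted p = 0.0012). Of 20 genes for G1 cyclins, Cdks and inhibitors, 2 passed (10% called, against 5.61% of all genes). Cdk4 fell by 0.55 and the inhibitor Cdkn1a rose by 0.79. Both calls were lost without IgG 1 (adjusted p = 0.0925 and 0.0667), that of Cdk4 also without AntiNRR 2 (0.0613) and that of Cdkn1a without AntiNRR 1 (0.138), IgG 2 (0.0795) or IgG 3 (0.0992).

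Among 21 p53 target genes, 4 rose and none fell (19% called, against 5.61% of all genes, median 0.20). The count was 1 without IgG 3 and 2 without AntiNRR 1, IgG 1 or IgG 2. Trp53inp1, a stress protein of autophagy and cell death, was at 1408, 1160 and 1167 CPM against 840, 765 and 801 CPM (0.63, SE 0.09, adjusted p = 0.000108). Btg2, Cdkn1a and Ddb2 were the others, and Ddb2 lost its call without any 1 of the 6 libraries (adjusted p 0.0506 to 0.209). Of 12 Bcl2 family genes, 1 passed (8.33% called, near the 5.61% of all genes). Bmf, a death-promoting BH3-only protein, was at 220, 248 and 180 CPM against 123, 124 and 117 CPM (0.83, SE 0.12, adjusted p = 9.96e-05). The AntiNRR libraries were all above the controls. Among 23 immediate early and MAPK feedback genes, Jund (0.90, adjusted p = 0.000329) and Btg2 rose and Myc fell. The share called was 13%, against 5.61% of all genes. Psat1 and Shmt2, enzymes of serine metabolism, were the 2 called of 19 stress response genes, both lower (10.5% called, against 5.61% of all genes). Both calls were lost when any 1 of 5 libraries was left out (adjusted p up to 0.196 and 0.205). None of the 28 type I interferon response genes was called.

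Among 17 homing and egress receptors, Ccr9, Selplg and Itgb2 rose and Plxnd1 fell (23.5% called, against 5.61% of all genes). The call of Plxnd1 was lost without AntiNRR 2 (adjusted p = 0.0501), IgG 1 (0.0557) or IgG 3 (0.0567). Selplg, the P-selectin ligand through which precursors enter the thymus, was at 325, 362 and 334 CPM against 271, 228 and 215 CPM (0.52, adjusted p = 0.00339). Itgb2, the common chain of leukocyte integrins, was at 43.9, 49.8 and 35.1 CPM against 24.2, 19.2 and 20.6 CPM (1.01, adjusted p = 0.00733), with an adjusted p of 0.0524 without IgG 2. Of 19 double-positive thymocyte markers, 4 rose (Ccr9, Glcci1, Dntt and Themis) and 3 fell (Plxnd1, Rag1 and Ets2). The share called was 36.8%, against 5.61% of all genes. Cd4 (0.58) and Cd8a (-0.17) did not pass, and none of the falls was left without AntiNRR 2. Of 14 mature T-cell markers, the membrane proteins Ms4a6b (0.72) and Ms4a4b (1.31) rose and Il7r fell (21.4% called, against 5.61% of all genes). Ms4a4b lost its call without AntiNRR 3 (adjusted p = 0.174), IgG 2 (0.165) or IgG 3 (0.0803). S1pr1, Klf2 and Ccr7, which define mature cells, were at most 2.72 CPM in each library.

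Genes of gamma-delta T cells, a lineage that leaves the alpha-beta path around this stage, rose in 4 of 9 cases with none falling (44.4% called, against 5.61% of all genes, median 0.70). The count was 2 without IgG 2, without IgG 3 or with the shared spread. 5830411N06Rik, a scavenger receptor family gene, was at 132, 192 and 134 CPM against 66, 76.9 and 54.1 CPM (1.22, SE 0.16, adjusted p = 3.48e-05). Its neighbour and relative Cd163l1 was at 24.6, 44.3 and 21.7 CPM against 16.4, 14.5 and 15.1 CPM (0.98, adjusted p = 0.0454), and reads may be shared between the 2 genes. Sox13, a factor of this lineage, was at 109, 92.3 and 112 CPM against 67.6, 59.6 and 47.7 CPM (0.84, adjusted p = 0.0015). Cd24a rose by 0.42. The call of Cd163l1 was lost without AntiNRR 2 (adjusted p = 0.335), IgG 1 (0.104), IgG 2 (0.164) or IgG 3 (0.157). That of Cd24a was lost without AntiNRR 1 (adjusted p = 0.111), IgG 2 (0.0591) or IgG 3 (0.127). With a spread shared by 4 DN3 groups, adjusted p was 0.114 for Sox13 and 0.0986 for Cd163l1. The list summed to 1450 to 1720 CPM in AntiNRR and 1020 to 1150 CPM in IgG. Il17a and Il23r were at 0 and Zbtb16 at most 0.606 CPM. Of 20 listed genes, 12 had a match among the genes of the table. Trdc and the listed gamma-chain constant genes had none, so the receptor genes that define this lineage were not measured here.

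Several defining markers of each other cell type that a sort could carry along were at 0, and the part of such cells in the results was not tested. The 13 mast cell markers summed to 283 to 342 CPM in AntiNRR and 118 to 137 CPM in IgG, nearly all of it Cpa3 and Kit, while 10 of them, among them Mcpt4, Tpsb2, Fcer1a and Ms4a2, were at 0 in all 6 libraries. The 22 natural killer and innate lymphoid markers summed to 253 to 284 CPM against 138 to 171 CPM. Of these, Gzma, granzyme A, was at 245, 219 and 223 CPM against 138, 126 and 114 CPM (0.86, adjusted p = 3.05e-05), and 0.0543 with the shared spread, while Klrd1, Ncr1 and Gzmb were at 0 and Nkg7 (0.20) did not pass. No B-cell, myeloid, dendritic-cell or erythroid marker was called, and Ms4a1, Mpo, Cd14, Clec9a and Slc4a1 were at 0 in all 6 libraries. Their sums were 42.7 to 49.2 against 52.3 to 60.6 CPM, 23.6 to 38.5 against 30.1 to 43.2 CPM, 172 to 185 against 153 to 168 CPM, and 12.6 to 15.8 against 10.6 to 15.7 CPM. Of 8 tested stromal markers, Pecam1 (0.46) and Pdgfrb (0.57) rose (25% called, against 5.61% of all genes). Both calls were lost without IgG 2 (adjusted p = 0.057 and 0.142), without IgG 3 (0.0576 and 0.11) and with the shared spread (0.0515 and 0.0637), and that of Pdgfrb also without AntiNRR 2 (0.0966). Of the same list, Foxn1, Krt5 and Col1a2 were at 0 throughout, and the list sums were 657 to 732 against 612 to 645 CPM.

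The same antibodies in ETP gave a separate set of 6 libraries. There edgeR called none of 12568 genes (0%), with 687 at an unadjusted p under 0.05 (5.47%), and DESeq2 called 7 higher (0.0878%) and 17 lower (0.213%). The lowest edgeR adjusted p, 0.0816, was that of Cpa3, at 581, 657 and 767 CPM against 271, 258 and 368 CPM (1.16, SE 0.18). These levels lie above those of Cpa3 in DN3, although the stages were scaled separately. Notch1 was at 909, 713 and 896 CPM against 1652, 1567 and 1383 CPM (-0.87, SE 0.16, adjusted p = 0.139), without overlap. Dtx1, Ptcra, Il2ra and Myc lay lower in each AntiNRR ETP library than in each IgG ETP library. Their log2 fold changes were -3.01, -2.41, -1.91 and -1.0, and none of them passed. Hes1 overlapped between the ETP groups, at 41.3, 28.1 and 60.8 CPM against 54.2, 55.6 and 56.2 CPM (-0.35). The share of all genes without overlap in ETP was not counted, so such a separation alone is no result. Dtx1 illustrates the spread, at 0.941, 0.0631 and 8.65 CPM against 28, 25.9 and 24.5 CPM (SE 1.29).

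Of the 710 genes called in DN3, 702 were tested in ETP, and 591 of them (84.2%) had the same sign there. The share of equal signs over all genes was not computed, so this share has no background to be judged against. The median in ETP was 0.25 for those that rose in DN3 (0.58 in DN3) and -0.31 for those that fell (-0.67 in DN3). Of the 42 nucleolar genes, 40 were below 0 in ETP (median -0.40), and none passed. The difference between the antibody effects at the 2 stages, tested over 13603 genes, gave no call by edgeR (0%), 743 genes at an unadjusted p under 0.05 (5.46%) and, by DESeq2, 4 higher (0.0248%) and 3 lower (0.0186%). The genes with the lowest p in that test were led by Col15a1, Stat4 and Cpa3, whose differences, DN3 minus ETP, were 2.56, 1.00 and 1.39 on the log2 scale (edgeR adjusted p = 0.887). A gene called in DN3 and not in ETP is thus not shown to respond differently.

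In the deletion experiment Zmiz1 itself was at 119, 130 and 114 CPM in DeltaMxCre against 288, 354 and 321.5 CPM in MxCre (-1.41, SE 0.13, adjusted p = 0.000144). The libraries labelled as deleted were all far below the controls, and none was near 0. Loss of Zmiz1 in DN3 gave 183 calls of 12675 genes (1.44%) by edgeR and, by DESeq2, 316 higher (2.39%) and 204 lower (1.55%), from libraries separate from the antibody set. The edgeR count was 15 without DeltaMxCre 2, 12 without DeltaMxCre 3, 81 without MxCre 1 and 403 without MxCre 3. Of the antibody calls, 707 were tested there and 533 (75.4%) had the same sign, and here too the share over all genes was not computed. In all 42 genes were called in both, 5.94% of the antibody calls and 23% of the deletion calls, 27 in the same direction and 15 in opposite directions. Lef1 fell in both, at 178, 173 and 153 CPM in DeltaMxCre against 328, 316 and 264 CPM in MxCre (-0.85, SE 0.13, adjusted p = 0.00622), next to -0.88 with the antibody. Bmf, Rag1, Themis, Nop56 and Rpsa were others of the 27. Of 42 nucleolar genes, 39 were below 0 with the deletion (median -0.35), and 1 passed, lower (2.38%, against 1.44% of all genes). Of 79 ribosomal protein genes, 74 were below 0 (median -0.31), and 2 passed, both lower (2.53%, against the same 1.44%). Of 35 DNA replication genes, 34 were below 0 (median -0.25), and none passed.

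A test of the difference between both effects called 167 of 13557 genes (1.23%), 64 with a higher value for the antibody (0.472%) and 103 with a lower one (0.76%). DESeq2 called 134 (0.959%) and 209 (1.5%). Several Notch targets were among the lower ones. Ptcra was at 184, 198 and 160 CPM in DeltaMxCre and at 156, 198 and 130 CPM in MxCre, with overlap (0.16, adjusted p = 0.677), so that the antibody effect lay 1.73 below it (SE 0.21, adjusted p = 1.3e-05). Il2ra was at 4348, 4838 and 5798 CPM against 2293, 3431 and 4216 CPM, higher in each deleted library without passing (0.59, adjusted p = 0.158), and the difference was -3.01 (SE 0.32, adjusted p = 0.000961). Dtx1 rose upon deletion, from 134, 185 and 185 CPM to 379, 350 and 377 CPM (1.13, SE 0.14, adjusted p = 0.00115), the opposite of its fall with the antibody, and the difference was -5.06 (SE 0.47, adjusted p = 0.000889).

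Bst1, a surface enzyme that makes cyclic ADP-ribose, had the lowest p of the difference. It was at 68.2, 56.8 and 63.9 CPM against 146, 135 and 162 CPM with the antibody and at 173, 206 and 172 CPM against 88.4, 116 and 110 CPM with the deletion. The groups separated in both experiments, in opposite directions (-1.23 and 0.81). Zcchc2 also fell with the antibody (-0.92) and rose with the deletion (0.59), while Spats2 rose (0.92) and fell (-1.04). Fat4, an atypical cadherin, rose with the antibody (60.8, 52.6 and 44.5 CPM against 29, 31.7 and 30.6 CPM) and fell with the deletion (0.685, 1.91 and 1.52 CPM against 21.3, 32.3 and 9.13 CPM). Its call with the antibody was lost without AntiNRR 1 (adjusted p = 0.0851), IgG 1 (0.0704), IgG 2 (0.0622) or IgG 3 (0.073) and with the shared spread (0.209). For Myc the difference did not pass. It was at 106, 75.4 and 77.9 CPM in the deleted libraries against 229, 132 and 102 CPM, with overlap (-0.84, adjusted p = 0.211), and the difference of -0.13 had an SE of 0.40 (adjusted p = 0.935). Without IgG 2 the test of the difference called 99 genes, without IgG 3 it called 101 and without MxCre 3 it called 290. The agents and the interval from injection to sorting differ between the experiments, so their parts in these differences cannot be told apart. Rn45s took 4.71% to 5.07% of counts in DeltaMxCre and 6.76% to 8.82% in MxCre, the reverse of the antibody libraries. Malat1 took 0.961% to 1.33% against 0.324% to 0.711%. With both left out of the library sizes the test of the difference called 163 genes, and their part was not tested further.

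**Figure D5:**
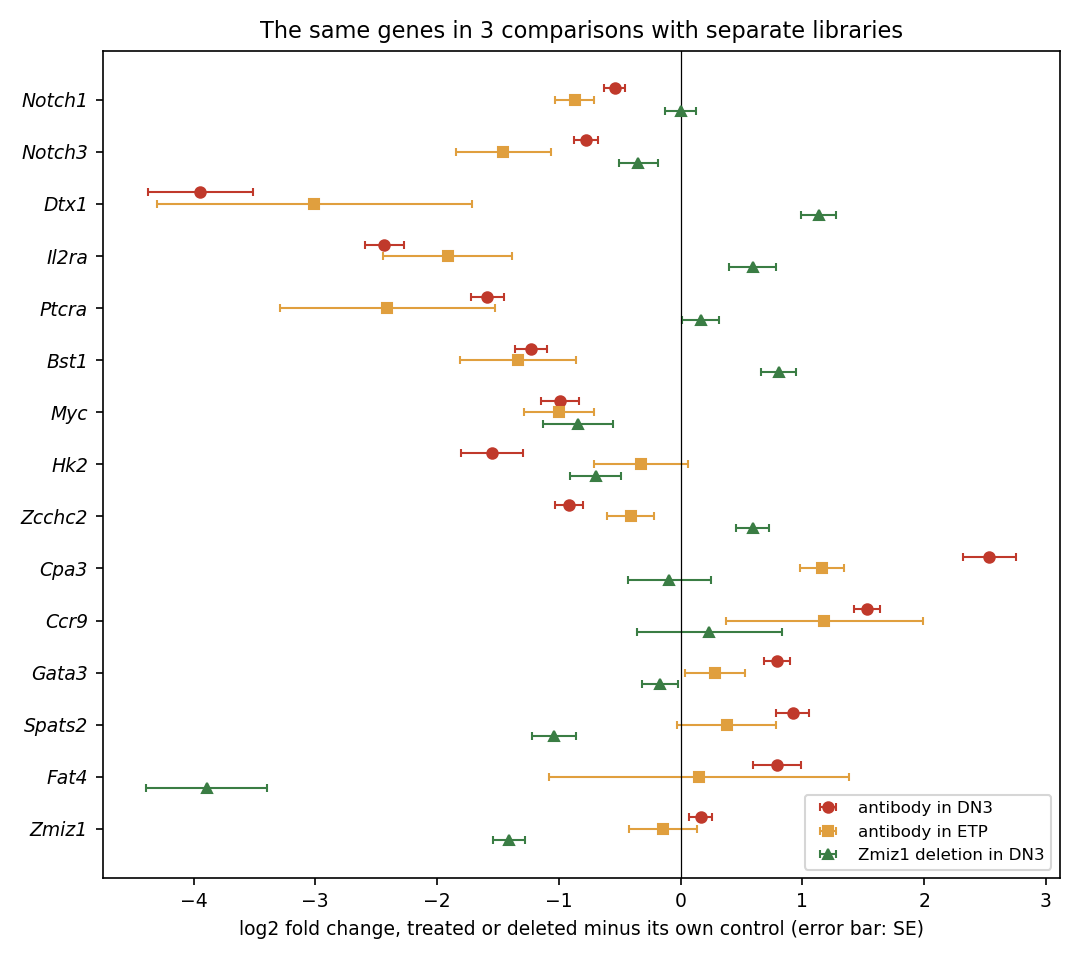
Log2 fold changes with SE bars of 15 genes for the antibody in DN3 (red circles), the antibody in ETP (orange squares) and the Zmiz1 deletion in DN3 (green triangles), each against its own controls. Dtx1, Il2ra, Ptcra and Bst1 lie left of 0 with the antibody at both stages and right of 0 with the deletion; Myc lies left of 0 in all 3, and the ETP bars are the widest for most of these genes.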

How the data were processed

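RNA of sorted thymocytes (10 ng, from sorted DN3 cells, per the labels) was depleted of ribosomal RNA and amplified with a SMARTer low-input kit over 16 PCR cycles. The submitters' processing notes name the build mm10 and the tools Cuffdiff 2.1.1, Cufflinks, TopHat2 2.0.9, FastQC 0.10.0 and Bowtie2 2.1.0.0, and each tool's role, the annotation and the use of strand are not given in the sources used here. The authors deposited estimated counts per gene symbol, not scaled between libraries, of which 0.51% to 0.863% per library lay further than 0.01 from a whole number. They were rounded here. Low genes were removed with filterByExpr (minimum count 10, minimum total 15), libraries were scaled by TMM, and groups were compared with the robust quasi-likelihood F test of edgeR 4.0.16 in R 4.3.3, prior count 0.125, Benjamini-Hochberg adjusted p under 0.05 over all genes tested. Each comparison used its own groups only, and differences of effects were contrasts of 4 group means.

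The members, 36 gene lists and the naming rule were chosen with earlier results of these data known. The rule takes 12 Notch-related genes, the 12 largest rises and falls among calls whose groups do not overlap and average 5 CPM or more in 1 group (unnamed gene models and receptor segments left out), up to 4 called members of each list (2 members if none was called) and the 6 lowest p of each difference. Of 789 list genes, 774 matched the table, 8 of them by an older symbol. Positions are from GENCODE M21 on GRCm38. The alternatives were DESeq2 1.42.0, its size factors in edgeR, other filters, the replicate number as a block, a spread shared by 4 DN3 groups, an adjusted p under 0.01, library sizes without Rn45s and Malat1, and leaving out each library. Statistics were tested on simulated data. Libraries made with other kits were not used. Same-numbered AntiNRR and IgG DN3 libraries correlated in their deviations at 0.111, 0.0665 and -0.0161, only the first above 0.1. Others correlated at -0.104 to 0.0418. The numbers were not taken as pairs in the main fit. Some named genes are not reported here.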

Additional observations from a re-analysis of the deposited data

Results flagged for a closer look

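The antibody and the Zmiz1 deletion had effects in DN3 that differed in 167 genes by the edgeR test of the difference itself, from libraries that the 2 experiments do not share. The 6 genes with the lowest p are given as antibody effect minus deletion effect on the log2 scale. Bst1 differed by -2.02, Ptcra by -1.73 and Zcchc2 by -1.49. Spats2 differed by 1.98, Fat4 by 4.69 and Zmiz1, the gene that was deleted, by 1.59. The fitted value of Fat4 rests on deleted libraries at 0.685 to 1.91 CPM, and its call with the antibody was lost when any 1 of 4 libraries was left out (adjusted p up to 0.0851).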

How the results depend on the processing

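The count for the antibody in DN3 (710) ran from 551 to 921 under 7 alternatives, was 327 at an adjusted p under 0.01 and ran from 351 to 677 without 1 library. With the replicate number as a block it was 872, of which 701 were among the 710. The check for pairing by replicate number was weak and mixed. DESeq2 and no filter gave 24 and 8 calls for the antibody in ETP, and leaving out 1 library 0 to 5. For the deletion they gave 520 and 347 (main 183), the block 227 and single omissions 12 to 403, with 15 without DeltaMxCre 2, 12 without DeltaMxCre 3, 81 without MxCre 1 and 403 without MxCre 3. DESeq2 gave 7 for the DN3 minus ETP difference (0 to 3 without 1 library) and 343 for the antibody minus deletion difference (99 to 290 without 1 library; 211 with the block). Of 100 called genes that the naming rule took, none changed direction in any fit, 49 passed under each alternative and 56 without any 1 library. Signs turned in uncalled genes when 1 library was left out, within these ranges over the 6 omissions: Hes5 -0.61 to 1.35, Nrarp -1.06 to 0.0014, Alas2 -0.47 to 0.036, Klf1 -0.55 to 1.32 and Col15a1 -0.15 to 0.29. The causes were not tested. Genes under about 5 CPM rest on few counts.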

Other observations

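Some values outside the comparisons above describe single libraries. Replicates of the AntiNRR DN3 group were less alike than the controls: Pearson correlations of log2 levels between libraries, across genes, ran from 0.957 to 0.959 in AntiNRR and from 0.970 to 0.973 in IgG. The first principal component (30.1% of variance) separated the 2 groups, and the second held 21.7%. Capn5, a calpain protease chosen after its values were seen, showed one of the tightest differences, at 127, 129 and 131 CPM after the antibody and 250, 268 and 258 CPM in IgG (2.00-fold lower, adjusted p = 2.61e-06 by edgeR). Malat1, an abundant nuclear RNA, was at 11870 to 13470 CPM against 10650 to 13650 CPM (adjusted p = 0.989).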
